A study of Mus musculus with 4 samples.

Results

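DNA glycosylases are the enzymes that open base excision repair: each recognises a damaged or mispaired base and cuts it from its sugar, leaving a site without a base. The 10 genes described here, Tdg, Smug1, Ung, Ogg1, Mutyh, Mpg, Neil1, Neil2, Neil3 and Nthl1, were taken by symbol from a table of 55487 genes, and all 10 were found once. They were measured in nuclei sorted by fluorescence, as 2 libraries of excitatory and 2 libraries of inhibitory neurons, taken from brains of adult wild-type mice (the whole organ but for the olfactory bulb). All 4 libraries are labelled as batch 1, no treatment is given, and neither the sort marker nor the number of animals behind a library is given in the sources used here. The comparison asks which transcripts set the 2 neuron classes apart, in a study concerned with EGR1 and neuron-type epigenetic regulation.

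Neurons do not divide, so their genomes collect base damage that replication-linked repair cannot clear, and base excision repair is the main route against deaminated, oxidized and alkylated bases. After a glycosylase has acted, an endonuclease cuts the bare site, a polymerase fills the gap and a ligase closes it. TDG has a further role: it removes 5-formylcytosine and 5-carboxylcytosine, the products of TET oxidation of methylated cytosine, and so takes part in active DNA demethylation.

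Levels are TPM, the authors' length-scaled abundance, so genes can be compared with each other within a library. Depth cannot be read from TPM and is unknown. A log2 fold change is the excitatory minus the inhibitory mean of log2(TPM + 1); the added 1 shrinks the changes of low genes. A gene was called where limma gave a Benjamini-Hochberg adjusted p under 0.05 over the 26055 genes that reached 1 TPM in 2 or more libraries. Across these genes, which are not independent replicates, Pearson r between replicates was 0.967 (excitatory) and 0.968 (inhibitory). Nothing in the labels shows that replicates are separate animals, and a p-value here covers no more than the spread among these 4 libraries, which may be technical. For 2 against 2 libraries, the smallest two-sided p of an exact permutation test is 0.333. In bulk nuclei, fewer cells of a type and less RNA per cell cannot be told apart.

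The labels were checked on defining genes. Slc17a7, the cortical vesicular glutamate transporter, averaged 366 ± 1.46 TPM in excitatory and 56.2 ± 5.67 TPM in inhibitory nuclei (SD, n = 2 each, here and below). Gad1, which makes GABA, averaged 41.6 ± 4.84 TPM in excitatory and 217 ± 13.3 TPM in inhibitory nuclei. Gad2 (log2 fold change -2.49) and Dlx1 (-2.78), genes of inhibitory neurons, were called higher in inhibitory nuclei. Of the 7 excitatory markers listed, 6 were higher in excitatory and 1 in inhibitory nuclei. That 1 was Slc17a6, singled out after its values were seen, which loads glutamate into vesicles in thalamus and brainstem, at 21.3 ± 1.50 TPM in excitatory and 83.2 ± 6.74 TPM in inhibitory nuclei (limma adjusted p = 0.00176). Slc17a6 thus went against the labels, and Gad2 averaged 97.3 ± 4.20 TPM in the same inhibitory nuclei. Whether the groups also differ in the brain regions they came from was not tested, so differences below are between nuclei as labelled. Of the inhibitory markers, 6 were tested and 6 were higher in inhibitory nuclei. Among markers of other cells, 1 of 6 astrocyte genes was called, Slc1a2, which was higher in excitatory nuclei. All 6 had a positive log2 fold change, and 2 had an unadjusted p under 0.05 in limma. Over all tested genes 12.0% were called and 27.8% had such a p. The other 5 astrocyte genes summed to 47.6 and 56.6 TPM in excitatory libraries, against 33.0 and 42.7 TPM in inhibitory ones. None of 5 oligodendrocyte genes (summed 316 to 387 TPM in excitatory, 240 to 330 TPM in inhibitory) and none of 5 microglia genes (52.8 to 57.7 TPM and 65.4 to 76.4 TPM in the same order) was called, with 0 and 1 at an unadjusted p under 0.05. The 4 endothelial genes were each under 1 TPM in every library, with Cldn5 and Ly6c1 at 0 in both inhibitory libraries. The part of these other cells in the glycosylase values was not tested.

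The promoters of 3 members are shown: Tdg because it is the only member called, and Smug1 and Nthl1 because they hold the same motif. That motif was picked after the sequences had been read, so sharing it is no result about their levels. Both stood higher in inhibitory nuclei with no overlap between groups, as did Ung, whose window lacks the motif. Each window runs from 250 bases before to 50 after a RefSeq start site (GRCm38.p6), is written 5′ to 3′ on the gene's strand, and has motifs in capitals.
Tdg, chr10:82629588-82629887, plus strand: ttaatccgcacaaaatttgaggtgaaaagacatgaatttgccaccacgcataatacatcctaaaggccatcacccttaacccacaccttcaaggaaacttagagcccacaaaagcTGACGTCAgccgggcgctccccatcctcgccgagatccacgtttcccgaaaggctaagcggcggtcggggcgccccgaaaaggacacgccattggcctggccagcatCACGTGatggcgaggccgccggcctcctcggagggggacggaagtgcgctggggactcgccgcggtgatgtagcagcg
Smug1, chr15:103163235-103163534, minus strand: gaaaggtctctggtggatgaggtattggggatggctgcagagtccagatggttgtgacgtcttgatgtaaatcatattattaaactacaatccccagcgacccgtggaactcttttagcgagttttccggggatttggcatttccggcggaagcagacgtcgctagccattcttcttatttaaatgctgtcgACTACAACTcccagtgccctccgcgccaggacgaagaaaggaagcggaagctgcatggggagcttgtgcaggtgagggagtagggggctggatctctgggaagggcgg
Nthl1, chr17:24632432-24632731, plus strand: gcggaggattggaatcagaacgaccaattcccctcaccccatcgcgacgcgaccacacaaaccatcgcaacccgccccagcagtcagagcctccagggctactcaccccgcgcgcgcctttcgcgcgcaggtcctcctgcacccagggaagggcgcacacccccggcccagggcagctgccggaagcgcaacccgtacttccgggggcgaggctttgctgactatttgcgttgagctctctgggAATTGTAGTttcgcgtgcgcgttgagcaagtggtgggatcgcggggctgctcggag

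Capitals mark TGACGTCA, the cAMP response element, and CACGTG, an E-box, in Tdg, and ACTACAANT, a core of the site bound by Zfp143, in Smug1 and, on the other strand, Nthl1. The RefSeq table held windows for 9 of the 10 members, with none for Neil2 and 2 for Mutyh. Letters were searched on both strands, and 6 motifs, with a longer form of ACTACAANT, were tried after the sequences had been read. Tdg was the only member with TGACGTCA, which 1.79% of 32851 promoter windows hold, and the only member with CACGTG, held by 7.15%. Smug1 and Nthl1 were the only members with ACTACAANT, held by 1.49% of windows. GGGCGG, the GC box, was in windows of 7 members (Mpg, Mutyh, Neil3, Nthl1, Ogg1, Smug1 and Ung), against 35.7% of all windows. GCGTGGGCG, a site of EGR1, was in no member window and in 0.612% of all windows. TATAAA was in the Neil1 window and in 13.6% of all. Occurrences of different motifs did not overlap within member windows. The start site of the Smug1 window lies 3808 bases inside the annotated gene, so it shows 1 of its possible promoters. The Tdg, Smug1 and Nthl1 windows hold 26, 15 and 30 CpG dinucleotides, against a median of 7 over all windows. The other member windows hold 14 to 31, but for the second Mutyh window with 2, so this is no trait of those shown. The shares of all windows with a motif were not matched for CpG content. These letters describe the windows, and no binding was measured here.

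**Figure D1:**
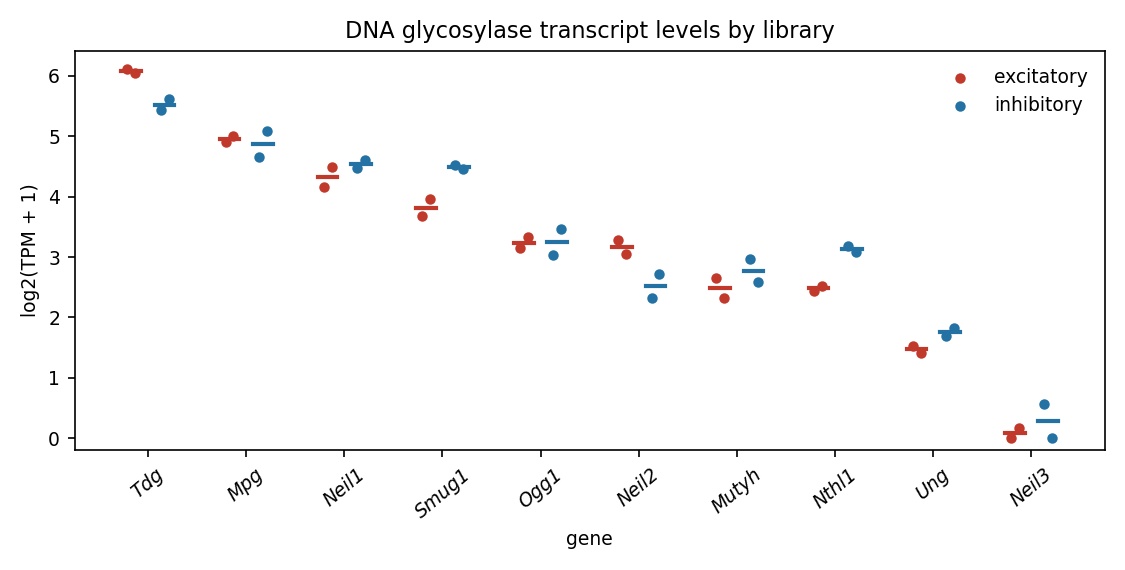
Level of each glycosylase as log2(TPM + 1) in the 2 excitatory (red) and 2 inhibitory (blue) libraries; points are libraries and bars group means. Tdg was the most abundant member in all 4 libraries, at 65.4 and 68.2 TPM in excitatory and 42.1 and 47.9 TPM in inhibitory nuclei, and Neil3 was at or near 0.

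Among the 9 tested members, mean levels ran from 1.77 to 66.8 TPM in excitatory and from 2.38 to 45.0 TPM in inhibitory nuclei, while the ratios of excitatory to inhibitory means lay between 0.590 and 1.68. Tdg had the highest mean in both groups, above 88.7% of tested genes in excitatory and 81.2% in inhibitory nuclei. Mpg and Neil1 followed in both groups, while Ung and Neil3 came last. The levels of Tdg, Mpg and Ogg1, and so their places and the sum below, are uncertain if strand was not used in the counting. Within excitatory libraries, the ranges of Ogg1 and Neil2, and of Mutyh and Nthl1, overlapped as neighbours in the order. Within inhibitory libraries, neighbours with overlapping ranges were Neil1 and Smug1, Ogg1 and Nthl1, and Mutyh and Neil2. Summed over the 10 members, the level was 154 and 159 TPM in excitatory libraries, against 138 and 156 TPM in inhibitory ones, so the sums overlapped.

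Of the members, 9 were tested and 1, Tdg, was called, higher in excitatory nuclei. Over all tested genes 12.0% were called (5.43% higher in excitatory and 6.62% higher in inhibitory), so 1 of 9 is close to the background and is no result about the family. With limma, 0 members were called higher in inhibitory nuclei, and 4 of the 9 had an unadjusted p under 0.05, against 27.8% of all tested genes. Groups did not overlap for 5 of the 9, against 56.2% of all tested genes. The median log2 fold change was -0.21 over the 9 members and -0.07 over all tested genes, and the median size regardless of sign was 0.29 and 0.30. All 9 stood at 1 TPM or more in every library, so none passed the filter through 1 group alone.

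Tdg encodes thymine DNA glycosylase, which removes thymine or uracil opposite guanine as well as oxidized methylcytosine. Tdg had 68.2 and 65.4 TPM in excitatory libraries, against 42.1 and 47.9 TPM in inhibitory libraries. Both excitatory libraries stood above both inhibitory ones. Its log2 fold change was 0.56 ± 0.12 (SE; 95% interval 0.28 to 0.85; limma adjusted p = 0.0331), a 1.48-fold ratio of mean TPM. The call was lost without the filter on low values (adjusted p = 0.0700), with no trend in the variance prior (0.110), and with any 1 library left out (0.117 to 0.185), where limma called 0 genes of all those tested. The log2 fold change was between 0.47 and 0.65 in those fits with 1 library left out. The Tdg gene (chromosome 10, 82629828 to 82650799, plus strand, mm10) shares its last 367 bases with Glt8d2 on the minus strand, all of them exonic in both. Glt8d2, a glycosyltransferase-domain gene, had 51.8 and 46.6 TPM in excitatory libraries, against 11.2 and 14.3 TPM in inhibitory ones (log2 fold change 1.88 ± 0.17, limma adjusted p = 0.00319). The shared stretch is 6.83% of the exonic bases of Tdg. The libraries were strand-specific, but the sources used here do not say if reads were counted by strand. The value of Tdg is therefore uncertain, and the part of Glt8d2 reads in it was not tested. Its pseudogenes Tdg-ps and Tdg-ps2, which could share reads with it, stood at no more than 0.560 TPM in any library.

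Smug1 and Ung encode the other uracil glycosylases of this group: UNG acts on uracil in single and double strands, including at replication forks, and SMUG1 on uracil and on 5-hydroxymethyluracil, an oxidized thymine. Smug1 had 11.8 and 14.6 TPM in excitatory libraries, against 21.9 and 21.04 TPM in inhibitory ones. Both excitatory libraries stood below both inhibitory ones, yet Smug1 did not pass the threshold (log2 fold change -0.67 ± 0.18, 95% interval -1.10 to -0.24, limma adjusted p = 0.0626). Ung had 1.88 and 1.66 TPM in excitatory libraries, against 2.23 and 2.53 TPM in inhibitory ones. The groups did not overlap, but the interval of the difference spanned 0 (-0.98 to 0.41, limma adjusted p = 0.578). The ratio of Tdg to Smug1 within a library, set up after their values were seen, was 5.78 and 4.49 in excitatory libraries, against 1.92 and 2.27 in inhibitory ones. This ratio does not depend on how a library is scaled to its total, and the exact permutation test cannot go below p = 0.333 for it. Its separation follows from the single genes, whose groups stood apart in opposite directions.

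Mbd4, a further mismatch glycosylase that binds methylated CpG sites and is not among the 10, had 21.9 and 17.4 TPM in excitatory libraries, against 15.3 and 15.0 TPM in inhibitory ones. The groups did not overlap, and it was not called (log2 fold change 0.35 ± 0.18, limma adjusted p = 0.273).

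Mpg encodes the glycosylase that removes alkylated purines such as 3-methyladenine. Mpg had 28.9 and 31.0 TPM in excitatory libraries, against 24.3 and 33.0 TPM in inhibitory ones. The excitatory values lay within the inhibitory range (log2 fold change 0.08, 95% interval -0.35 to 0.51, limma adjusted p = 0.828), and the sign turned to -0.13 without inhibitory replicate 1. The whole Mpg gene (chromosome 11, 32226505 to 32232700, plus strand) lies within Nprl3 on the minus strand, and 35.7% of its exonic bases are also Nprl3 exon. Nprl3, a regulator of the nutrient-sensing mTORC1 pathway, averaged 100.2 ± 16.6 TPM in excitatory and 97.6 ± 1.21 TPM in inhibitory nuclei. The level of Mpg is therefore uncertain if strand was not used in the counting.

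The largest role group handles oxidized bases. OGG1 removes 8-oxoguanine opposite cytosine, and MUTYH removes the adenine that replication places opposite an 8-oxoguanine. Ogg1 had 7.85 and 9.05 TPM in excitatory libraries, against 7.15 and 10.02 TPM in inhibitory ones. Its groups overlapped (log2 fold change -0.01, 95% interval -0.61 to 0.60, limma adjusted p = 0.990). Its sign was positive under median ratio scaling (0.06) and quantile normalization (0.09), so no direction is given. Mutyh had 5.30 and 3.98 TPM in excitatory libraries, against 6.84 and 4.98 TPM in inhibitory ones. These values overlapped too (log2 fold change -0.29, 95% interval -0.99 to 0.40, limma adjusted p = 0.572).

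**Figure D2:**
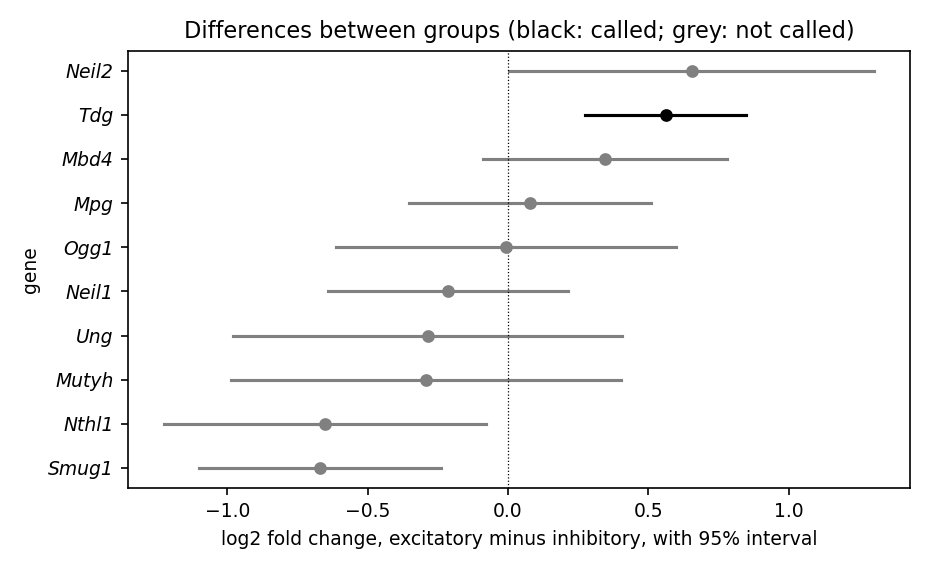
Log2 fold change (excitatory minus inhibitory) with its 95% limma interval for the 9 tested members and Mbd4; black marks a called gene and grey one that was not. Tdg (0.56) was the only one called, Neil2 (0.65) had the highest value, and Smug1 (-0.67) and Nthl1 (-0.65) had the lowest.

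NTHL1, NEIL1 and NEIL2 remove oxidized pyrimidines, and NEIL2 also acts on bubbles in transcribed DNA. Nthl1 had 4.44 and 4.75 TPM in excitatory libraries, against 8.09 and 7.51 TPM in inhibitory ones. The groups stood apart, but Nthl1 was not called (log2 fold change -0.65 ± 0.24, 95% interval -1.23 to -0.08, limma adjusted p = 0.136). Neil2 had 8.74 and 7.32 TPM in excitatory libraries, against 3.97 and 5.59 TPM in inhibitory ones. Both excitatory values lay above both inhibitory ones, again without a call (log2 fold change 0.65 ± 0.27, 95% interval 0.0031 to 1.31, limma adjusted p = 0.178). Neil1 had 16.9 and 21.5 TPM in excitatory libraries, against 21.2 and 23.3 TPM in inhibitory ones. Those ranges overlapped (log2 fold change -0.21, 95% interval -0.64 to 0.21, limma adjusted p = 0.490). Neil3, which repairs single-stranded DNA and crosslinks in dividing cells, was listed at 0 and 0.118 TPM in excitatory libraries, against 0.482 and 0 TPM in inhibitory ones, and was not tested.

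Of 10 genes of dividing cells, 5 passed the filter on low values and 0 were called, with 0 at an unadjusted p under 0.05 in limma. The shares over all tested genes were 12.0% and 27.8%, from which so short a list cannot be told apart. The proliferation marker Mki67, named for the smallest p of this list, stood at 3.74 and 4.21 TPM in excitatory libraries, against 2.61 and 2.42 TPM in inhibitory ones. It was not called (log2 fold change 0.50, limma adjusted p = 0.294). Of the 5 tested genes, 4 had a positive log2 fold change and 1, Birc5, a negative one (-0.29).

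The ratio of Neil2 to Nthl1 within a library, also set up after the values were seen, was 1.97 and 1.54 in excitatory libraries, against 0.491 and 0.744 in inhibitory ones. Neil2 thus exceeded Nthl1 in both excitatory libraries and stood below it in both inhibitory ones. Since Neil2 was higher in both excitatory libraries and Nthl1 in both inhibitory ones, the ratio had to separate and adds nothing to them. The same holds for Tdg over Smug1 and Tdg over Ung. In all, 6 such ratios were formed, and no share over other gene pairs was computed. Groups also did not overlap for Tdg over Ung (36.2 and 39.3 in excitatory libraries, against 18.8 and 18.9 in inhibitory ones) and Neil2 over Neil1 (0.518 and 0.341 in excitatory libraries, against 0.187 and 0.240 in inhibitory ones). They overlapped for Smug1 over Ung (6.27 and 8.76 in excitatory libraries, against 9.80 and 8.32 in inhibitory ones) and Ogg1 over Mutyh (1.48 and 2.28 in excitatory libraries, against 1.05 and 2.01 in inhibitory ones).

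**Figure D3:**
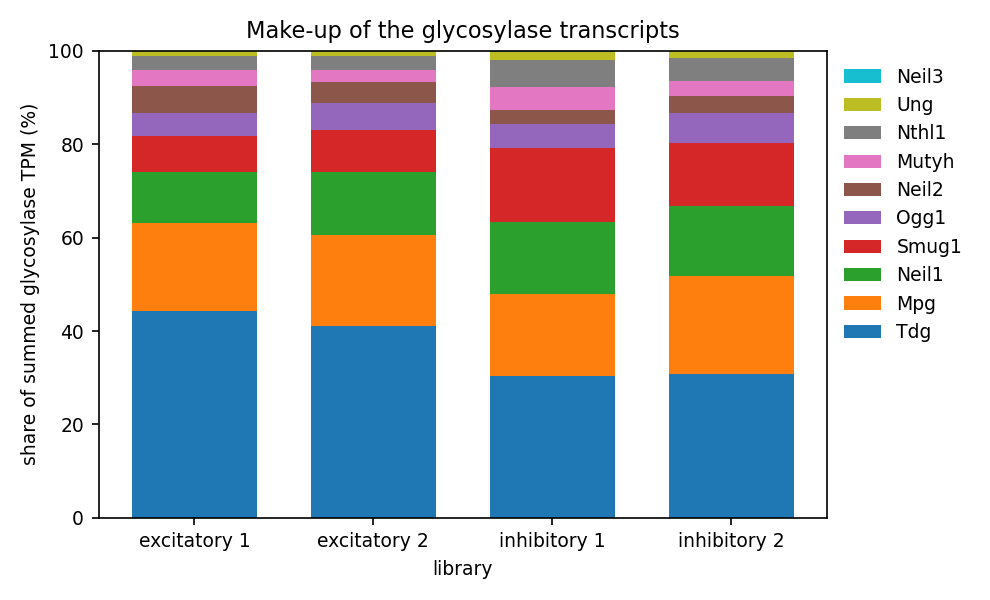
Share of the summed TPM of the 10 glycosylases taken by each gene (percent, stacked from the most abundant at the bottom) in the 2 excitatory and 2 inhibitory libraries. Tdg took 41.0% and 44.3% in excitatory libraries, against 30.4% and 30.7% in inhibitory ones.

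By role, Tdg, Smug1 and Ung together made up 51.2% and 53.2% of the summed glycosylase TPM in excitatory libraries, against 45.8% and 47.9% in inhibitory ones. The 6 genes for oxidized bases took 28.1% and 29.3% in excitatory libraries, against 33.0% and 34.6% in inhibitory ones, and Mpg took 18.8% and 19.5% in excitatory libraries, against 17.6% and 21.2% in inhibitory ones. Smug1 alone took 7.66% and 9.14% in excitatory libraries, against 13.5% and 15.8% in inhibitory ones. Shares of 1 total are not independent of each other, and Tdg is the most abundant gene in each. They also rest on the levels of Tdg, Mpg and Ogg1, which are uncertain if strand was not used in the counting.

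Of 25 listed partners in base excision repair, 25 were tested and limma called 0, against 12.0% of all tested genes. These were Mbd4, itself a glycosylase, 7 genes of base-free site and end processing, 5 of nick sensing and 12 of gap filling and ligation. The list was chosen with earlier results of these data known, so 0 calls is no result about the pathway. An unadjusted p under 0.05 was found for 2 of the 25, against 27.8% of all tested genes. Groups did not overlap for 11 of the 25, against 56.2% of all tested genes. Their median log2 fold change was -0.03, and 24 of the 25 lay within 0.5 of 0. Lig1, the ligase of replication and long-patch repair, had 4.11 and 6.38 TPM in excitatory libraries, against 9.92 and 11.9 TPM in inhibitory ones. Its groups stood apart with the lowest value of the partners (log2 fold change -0.95 ± 0.27, limma adjusted p = 0.0796). Tdp1, which cleans blocked 3′ ends, stood at 37.6 and 48.5 TPM in excitatory libraries, against 30.6 and 33.6 TPM in inhibitory ones (adjusted p = 0.166). Parg, which removes poly(ADP-ribose), had the smallest p of the nick-sensing list and averaged 65.5 ± 4.22 TPM in excitatory and 76.5 ± 2.80 TPM in inhibitory nuclei (limma adjusted p = 0.244).

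Further partners are given for their roles, picked after values were seen. Polb, the gap-filling polymerase, averaged 126 ± 3.96 TPM in excitatory and 137 ± 4.54 TPM in inhibitory nuclei, above every glycosylase. Apex1, which cuts the base-free site, averaged 15.4 ± 1.26 TPM in excitatory and 18.3 ± 7.53 TPM in inhibitory nuclei. The nick sensor Parp1 averaged 90.3 ± 3.13 TPM in excitatory and 83.7 ± 1.26 TPM in inhibitory nuclei. The scaffold Xrcc1 averaged 32.9 ± 6.76 TPM in excitatory and 29.4 ± 5.79 TPM in inhibitory nuclei, and its ligase Lig3 42.2 ± 3.09 TPM in excitatory and 48.5 ± 7.88 TPM in inhibitory nuclei.

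Of the 6 genes that act with TDG in demethylation (Tet1 to Tet3 and the Gadd45 family), limma called 0, against 12.0% of all tested genes. With so few genes, 0 calls is near that share. The median log2 fold change was -0.01, and 1 gene had an unadjusted p under 0.05, against 27.8% of all tested genes. That gene, Gadd45b, an activity-induced regulator of demethylation, had 13.0 and 8.54 TPM in excitatory libraries, against 6.15 and 5.71 TPM in inhibitory ones (log2 fold change 0.74 ± 0.27, adjusted p = 0.136).

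**Figure D4:**
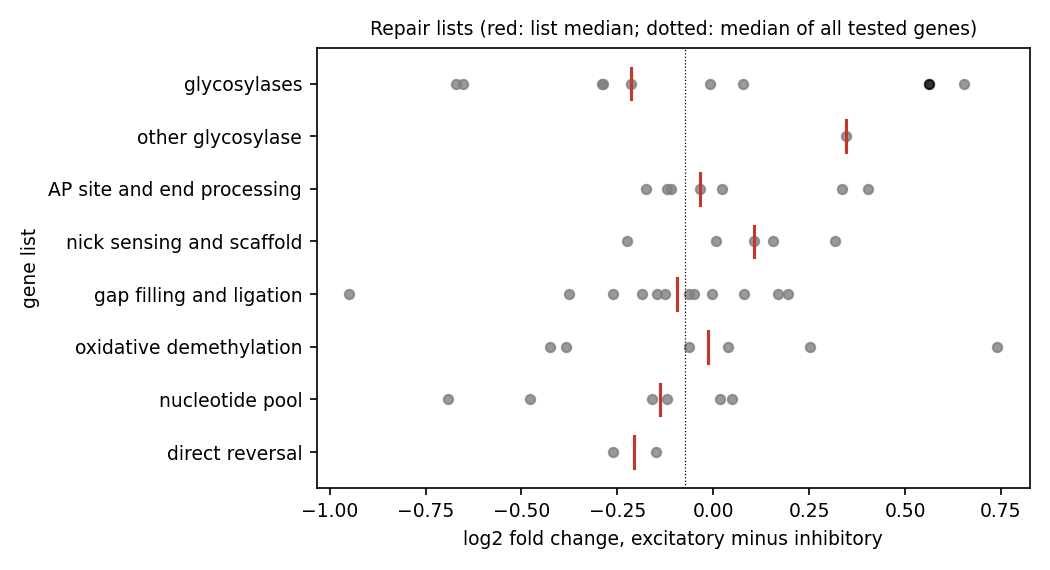
Log2 fold change (excitatory minus inhibitory) of each tested gene in the glycosylase and repair lists; black marks a called gene, grey one that was not, red bars list medians, and the dotted line the median of all tested genes (-0.07). Tdg is the only called gene in these lists, and Lig1 (-0.95) and Gadd45b (0.74) lie at the ends.

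By position, most members are compact genes. Their median span was 10176 bases, against 24662 bases for tested protein-coding genes, and 9 of 10 were below that median, Neil3 with 52199 bases being the exception. Beside those placed above, Smug1 lies on chromosome 15 (103153290 to 103167092, minus strand), Ung on chromosome 5 (114130386 to 114139323, plus strand) and Ogg1 on chromosome 6 (113326972 to 113335068, plus strand) of mm10. Mutyh lies on chromosome 4 (116807723 to 116819440, plus strand), Neil1 on chromosome 9 (57142800 to 57148305, minus strand), Neil2 on chromosome 14 (63182443 to 63193856, minus strand) and Neil3 on chromosome 8 (53586867 to 53639065, minus strand). Another gene started within 1 kb on the other strand at 3 of the 10, Nthl1, Mutyh and Ogg1, and at 23.8% of 14579 tested protein-coding genes. Nthl1 (chromosome 17, 24632680 to 24638837, plus strand) starts 50 bases from Tsc2, which encodes an mTORC1 inhibitor. Tsc2 had 123 and 167 TPM in excitatory libraries, against 120 and 141 TPM in inhibitory ones. The groups overlapped for Tsc2 (log2 fold change 0.14, 95% interval -0.27 to 0.55), while for Nthl1 they did not, and the difference between the neighbours was not tested. Mutyh starts 83 bases from Toe1, a 3′ exonuclease gene, which averaged 12.8 ± 0.611 TPM in excitatory and 13.6 ± 2.45 TPM in inhibitory nuclei. Ogg1 starts 225 bases from the antisense gene Gm15492 (3.48 ± 0.727 TPM in excitatory and 2.66 ± 0.363 TPM in inhibitory nuclei). At its other end Ogg1 overlaps the kinase gene Camk1 on the other strand over 945 bases, introns included. Of the Ogg1 exonic bases, 10.6% are also Camk1 exon. Camk1 averaged 67.4 ± 3.09 TPM in excitatory and 71.2 ± 13.3 TPM in inhibitory nuclei, so the lower level of Ogg1 is uncertain if strand was not used.

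**Figure D5:**
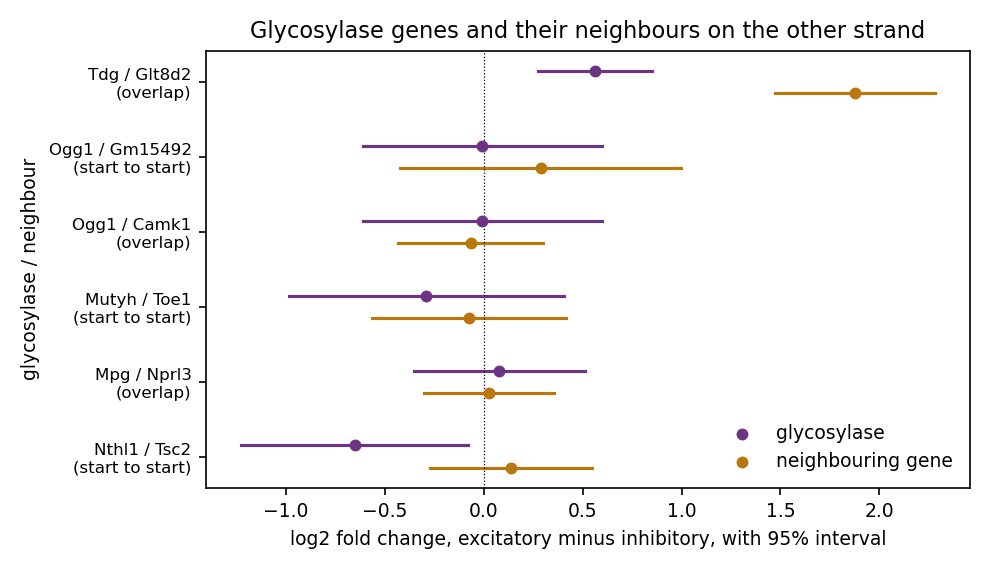
Log2 fold change (excitatory minus inhibitory) with its 95% limma interval for each glycosylase (purple) and the gene that overlaps it or starts within 1 kb of its start on the other strand (brown). Among the neighbours Glt8d2 (1.88), which overlaps Tdg, was called, and the other 5 were not.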

How the data were processed

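RNA from sorted nuclei, depleted of ribosomal RNA per the labels' protocols, was sequenced as strand-specific libraries. The authors deposited 1 table of TPM values, 1 column per library, each summing to between 999833 and 999891. Per the submitters' processing notes, fastp 0.23.4, HISAT2 2.2.1, Bowtie2 2.3.5, StringTie 2.2.1 and the build mm10 were used. Neither the annotation nor whether reads were counted by strand is given in the sources used here. Since TPM holds no depth, no counting interval could be computed, and 0 means only listed at 0.

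Genes that reached 1 TPM in 2 or more libraries were tested on log2(TPM + 1), a pseudocount of 1, by limma 3.58.1 in R 4.3.3 (two-sided moderated test with a variance trend). The code was run on simulated data with independent normal noise whose spread followed the mean level, as limma assumes. That run cannot show how far calls hold for libraries that may be technical replicates. P-values were adjusted over all genes tested by the Benjamini-Hochberg method, and a gene was called at an adjusted p under 0.05. Alternatives changed the pseudocount, filter, variance prior, scaling, replicate block and libraries used. Titles gave the groups and replicate numbers, and no column was a copy of another (89 and 93 identical log2 values within the excitatory and inhibitory pairs).

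Positions came from GENCODE mouse release M21, which matched 55141 of 55487 identifiers. Promoter windows came from RefSeq on GRCm38.p6. The members and lists were chosen with earlier results of these data known. All members, Mbd4, called genes and the gene of smallest p on each repair or dividing-cell list, neighbours of members and 5 markers were named by rule, of which 1 marker is not reported here. Figures were drawn with matplotlib 3.10.9.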

Additional observations from a re-analysis of the deposited data

How the results depend on the processing

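Of 9 other settings that kept all 4 libraries, Tdg was called in 7, with log2 fold changes of 0.56 to 0.64. It was not called without the filter (0.56, adjusted p = 0.0700) or when the variance prior had no trend (0.56, adjusted p = 0.110), so 0 members were called there. No other member was called by limma in any setting, and the adjusted p of Smug1 came as low as 0.0507. Without the filter 666 genes were higher in excitatory and 740 in inhibitory nuclei. Leaving out 1 library left 1 residual degree of freedom, and limma then called 0 genes in either direction and so 0 members (5311 to 5812 genes at an unadjusted p under 0.05), with Tdg between 0.47 and 0.65.

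The sign of Ogg1 turned under median ratio scaling (0.060), quantile normalization (0.091) and rescaling without the 10 most abundant genes (0.0024), and it ran from -0.22 to 0.21 with 1 library left out. With 1 library left out, Mpg ran from -0.13 to 0.29, Camk1 from -0.25 to 0.12, Toe1 from -0.25 to 0.10, Nprl3 from -0.14 to 0.20, Tsc2 from -0.078 to 0.36, Apex1 from -0.58 to 0.23 and Xrcc1 from -0.049 to 0.36. Camk1 turned to 0.0097 under median ratio scaling and Toe1 to 0.018 under quantile normalization. The cause of these turns was not tested.

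Replicate numbers are shared between groups, but the labels tie them to no animal, and deviations of same-numbered libraries correlated at 0.0957. With the replicate block limma called 4328 genes in place of 3139, and 1 partner, Lig1 (-0.95, adjusted p = 0.0472). TPM gives no depth, so the counting error of low genes such as Ung and Neil3 is unknown.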

Other observations

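Repair genes outside the base excision pathway gave no call either, but their lists are short. Over all tested genes limma called 12.0%, and 27.8% had an unadjusted p under 0.05, so 0 calls is no result about these lists. Of 6 genes that clean the nucleotide pool, limma called 0, with 1 at an unadjusted p under 0.05. Their median log2 fold change was -0.14, against -0.07 over all tested genes. Samhd1, which breaks down deoxynucleotide triphosphates, had 13.5 and 9.25 TPM in excitatory libraries, against 16.7 and 20.9 TPM in inhibitory ones, and the groups did not overlap (log2 fold change -0.69 ± 0.24, adjusted p = 0.121).

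Of 3 genes that reverse alkyl damage directly, 2 were tested and limma called 0, with 0 at an unadjusted p under 0.05. Against 12.0% and 27.8% of all tested genes, so short a list cannot be told apart from the background. Alkbh3, a demethylase of alkylated bases, had 93.8 and 84.8 TPM in excitatory libraries, against 101 and 96.8 TPM in inhibitory ones. Mgmt, which takes methyl groups from guanine and was singled out after its values were seen, had 0.339 and 0 TPM in excitatory libraries, against 0.740 and 1.26 TPM in inhibitory ones, and fell under the filter.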
